A study of Petunia x hybrida with 12 samples.

Results

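The 59 most abundant transcripts of petunia pistils are described here, out of 35812 gene IDs in the deposited table. They were chosen by measured values. An ID was a member if its mean over all 12 libraries was at least 1000 CPM (the count divided by the library's total count, times 1000000), if its CPM in WT day +1 replicate 3 was under 4 times that in replicate 2, and if its means over the 6 libraries of each day lay within 32-fold of each other. Abundance and the change between days were therefore used to choose the members. Both are given below as descriptions, with no test. The difference between genotypes was not used and could be tested.

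Whole pistils of the cultivar Mitchell (Petunia x hybrida), a petunia line with white flowers, were harvested at 14:00 and their polyadenylated RNA was sequenced. The 4 groups of 3 libraries were tps1 at day +1, WT at day +1, tps1 at day -1 and WT at day -1, with days counted from flower opening. Here tps1 stands for plants in which RNA interference (RNAi) was directed at PhTPS1, a gene for a terpene synthase, and WT for wild type. The labels name no plants with a control construct and no number of independent RNAi lines, and leave unsaid if replicate libraries were made from different plants. P-values thus measure the spread among libraries alone, part of which could be technical.

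The pistil is the female organ of the flower, made of stigma, style and ovary. It receives pollen, guides pollen tubes through secretory tissue of the style, and holds the ovules. PhTPS1 makes sesquiterpenes, volatile compounds that accumulate inside the closed bud and reach the pistil from neighbouring floral tissue, where a receptor of the KAI2 family is known to sense them. In RNA sequencing of polyadenylated RNA, a short list of transcripts usually takes a large share of all reads. Any change in that share changes the share of reads left for all other genes together.

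Each ID consists of the prefix Peaxi162, a scaffold number and a gene number, with no gene name beside it in the file. The product of each member, the level of PhTPS1 and the tissue markers were therefore not analysed here, and no role is given to any ID. CPM is not corrected for transcript length, so levels of different IDs are compared only as shares of reads. In whole pistils, fewer cells of a type and less RNA per cell cannot be told apart.

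Total counts per library ran from 19576755 to 30357964, and every member had between 2078 and 1214390 counts in each library. Counting error was small beside the spread between replicates, with a median coefficient of variation from counting of 0.490 to 0.593% over the members of a group. Libraries of a group differed more than this. A set of 560 IDs stood at least 4-fold higher in WT day +1 replicate 3 than in replicate 2, among IDs above a low limit on mean CPM in WT at day +1. By the membership rule no member could be in this set. These IDs held 8.84, 4.79 and 5.93% of counts in tps1 at day +1, 2.95, 1.39 and 10.9% in WT at day +1, and 0.166 to 0.169% in tps1 at day -1. In WT at day -1 they held 0.175, 1.04 and 0.170%, with the high value in replicate 2. Among the members, tps1 day -1 replicate 2 was the library farthest from the mean of its group for 46 of 59 IDs, and 6 members there differed over 2-fold from the other 2 replicates.

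The members held 13.3 to 17.8% of all counts of a library, and more at day +1 than at day -1 in the group means. They took 15.3, 16.2 and 15.8% of counts in the 3 tps1 libraries of day +1 and 17.8, 17.0 and 14.8% in the 3 WT libraries of day +1. At day -1 they took 13.3, 14.0 and 13.4% in tps1 and 13.9, 14.9 and 13.4% in WT. Within tps1 the days did not overlap, whereas WT day +1 replicate 3 lay just under WT day -1 replicate 2. Group means were 15.7% ± 0.442 in tps1 and 16.5% ± 1.53 in WT at day +1, and 13.6% ± 0.358 in tps1 and 14.1% ± 0.801 in WT at day -1 (SD, n = 3 each). Exact binomial intervals (95%, counting error only) of single libraries were narrow, such as 14.8196 to 14.8495% in WT day +1 replicate 3. The difference of tps1 minus WT was -0.79 percentage points at day +1 and -0.51 points at day -1, in each case less than the SD of the WT libraries and more than that of the tps1 libraries. Its size moved with single libraries, to -0.16 points without WT replicate 1 and -1.64 points without WT replicate 3 at day +1. At day -1 it moved to -0.08 points without WT replicate 2 and -0.86 points without WT replicate 3. It stayed below 0 with any 1 library left out. Much of this net difference lay in a few IDs. At day +1 Peaxi162Scf00250g00029 and Peaxi162Scf00250g00037 together gave -0.75 points, and the most abundant ID, Peaxi162Scf01298g00002, gave 0.17 points. At day -1 the pair gave -0.23 points and the most abundant ID -0.30 points. Without WT replicate 2 at day -1 these values were -0.08 and 0.03 points. Without WT replicate 1 at day +1 the pair gave -0.46 points. With the 560 co-varying IDs left out of the totals, the shares were 16.8, 17.0 and 16.7% in tps1 and 18.3, 17.2 and 16.6% in WT at day +1, against 13.4, 14.0 and 13.4% in tps1 and 13.9, 15.1 and 13.4% in WT at day -1, and the days then overlapped in neither genotype. Those IDs were chosen for being high in WT day +1 replicate 3, so the higher share of that library in this setting follows from the choice.

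**Figure D1:**
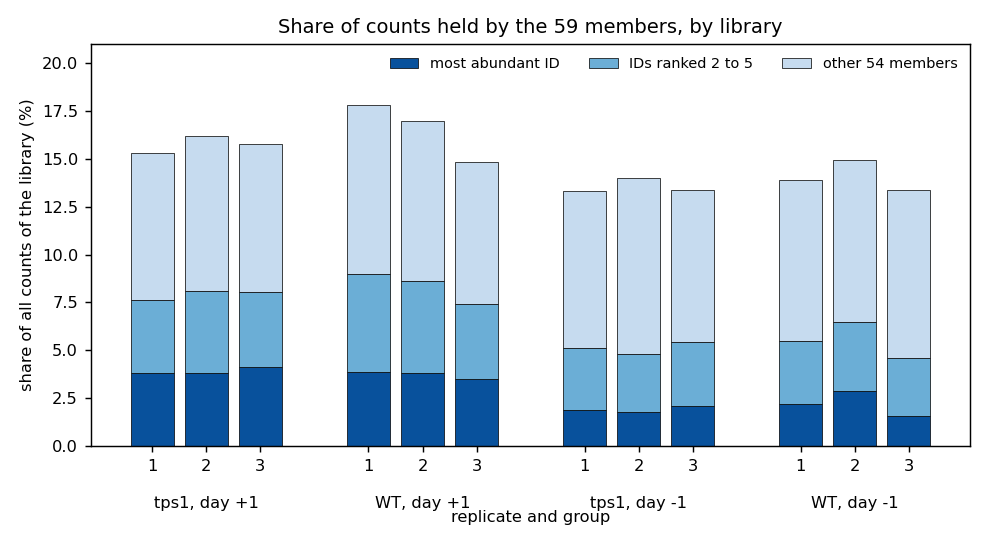
Share of all counts of each library (%, vertical axis) held by the 59 members, stacked as the most abundant ID, the IDs ranked 2 to 5 and the other 54, for 3 replicates of each group. The darkest segment is 3.49 to 4.10% high in the day +1 libraries and 1.55 to 2.88% high in the day -1 libraries, while the palest segment is 7.41 to 8.79% high at day +1 and 7.92 to 9.19% at day -1.

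The most abundant ID, Peaxi162Scf01298g00002, ranked first in all 12 libraries. It had 37946, 37899.8 and 41007 CPM in tps1 and 38666, 38064 and 34923 CPM in WT at day +1, against 18982, 17453 and 20894 CPM in tps1 and 22104, 28833 and 15492 CPM in WT at day -1. Every day +1 library was above every day -1 library. WT at day -1 had the widest spread, and tps1 overlapped WT on both days. As a share of counts this ID took 3.90% ± 0.178 in tps1 and 3.72% ± 0.201 in WT at day +1, and 1.91% ± 0.172 in tps1 and 2.21% ± 0.667 in WT at day -1 (SD, n = 3 each). Its fitted log2 fold change of day +1 over day -1 was 1.17 ± 0.200 (SE) in tps1, a 2.25-fold difference, and 0.88 ± 0.199 (SE) in WT, a 1.84-fold difference.

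Of the net difference in member share between the days, 2.18 percentage points in tps1, this ID alone gave 1.98 points. In WT it gave 1.51 of 2.46 points, but 1.62 of 3.31 points without WT day +1 replicate 3 and 1.17 of 2.11 points without WT day -1 replicate 3. Behind these net figures stood larger shifts in both directions: 30 members gained 5.99 points together in tps1 and 29 lost share, with a sum of -3.80 points. In WT, 30 members gained 5.83 points and 29 lost share, with a sum of -3.37 points. The 54 members below the first 5 held 7.83% ± 0.231 in tps1 and 8.19% ± 0.710 in WT at day +1, and 8.44% ± 0.664 in tps1 and 8.55% ± 0.195 in WT at day -1 (SD, n = 3 each).

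Levels within the membership were uneven. Only 13 members reached a mean of 2000 CPM, and the other 46 lay between 1000 and 2000 CPM, with a median over all members of 1412 CPM. Membership by the mean of 12 libraries did not mean abundance on both days. Of the 59, 38 averaged at least 1000 CPM at day +1 and 47 at day -1. Both means reached it for 26 members, the day +1 mean alone for 12 and the day -1 mean alone for 21, and 17 members reached it in every library. Another 21 IDs that are no members reached a mean of 1000 CPM at day +1 and another 19 at day -1. Of the 21 IDs that were among the 10 most abundant of any library, 20 were members, and 4 were in the first 10 in all 12 libraries.

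The threshold cut through a continuous range. Just inside it were Peaxi162Scf00114g00810 at a mean of 1006 CPM and Peaxi162Scf00438g00830 at 1001 CPM. Just outside were Peaxi162Scf01174g00117 at 994 CPM and Peaxi162Scf00038g01643 at 987 CPM. One more ID, Peaxi162Scf00418g00810, reached a mean of 1007 CPM but was left out by the limit on the day ratio. It had 936 to 3217 CPM in the libraries of day +1 and 6 counts over the 6 libraries of day -1. No other ID at 1000 CPM or more was left out. The members stayed far from the library limit, with a ratio of replicate 3 to replicate 2 of WT day +1 from 0.711 to 1.69. Their day means ran from 15.1-fold higher to 22.0-fold lower at day +1.

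The change between days moved the members in both directions. Counts by the size of the fitted change are given without a test and without reading a result from them, since the membership rule used the day means. In tps1, 15 members were over 2-fold higher and 19 over 2-fold lower at day +1, where the shares over all 21239 tested IDs were 17.3% higher and 18.6% lower. In WT, 15 members were over 2-fold higher and 18 over 2-fold lower, where 16.9% of all tested IDs were higher and 19.4% lower. The sign of the fitted change was the same in both genotypes for 55 of 59 members and for 91.5% of all tested IDs.

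Fitted changes over 4-fold were found for 4 members higher and 7 lower in tps1, against 9.99% and 8.82% of all tested IDs. In WT they were found for 4 members higher and 5 lower, against 9.24% and 8.41%. The median absolute log2 fold change of the members was 1.09 in tps1 and 1.15 in WT, beside 0.63 in tps1 and 0.66 in WT over all tested IDs. Members with a mean of 1000 CPM on 1 day only, 12 at day +1 and 21 at day -1, could enter through that day. The choice of members thus bears on this difference, and no result is read from it. The median signed log2 fold change was 0.20 in tps1 and 0.14 in WT for the members, beside 0.00 and -0.01 over all tested IDs. These medians depend on the scaling. With total-count scaling they were 0.0522 in tps1 and 0.0056 in WT for the members, beside -0.14 in tps1 and -0.15 in WT over all tested IDs. The members' median also moved with single libraries, in tps1 to 0.11 without tps1 day +1 replicate 2, 0.12 without tps1 day -1 replicate 1 and 0.12 without tps1 day -1 replicate 3, and in WT to 0.0557 without WT day +1 replicate 1 and 0.23 without WT day -1 replicate 2.

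**Figure D2:**
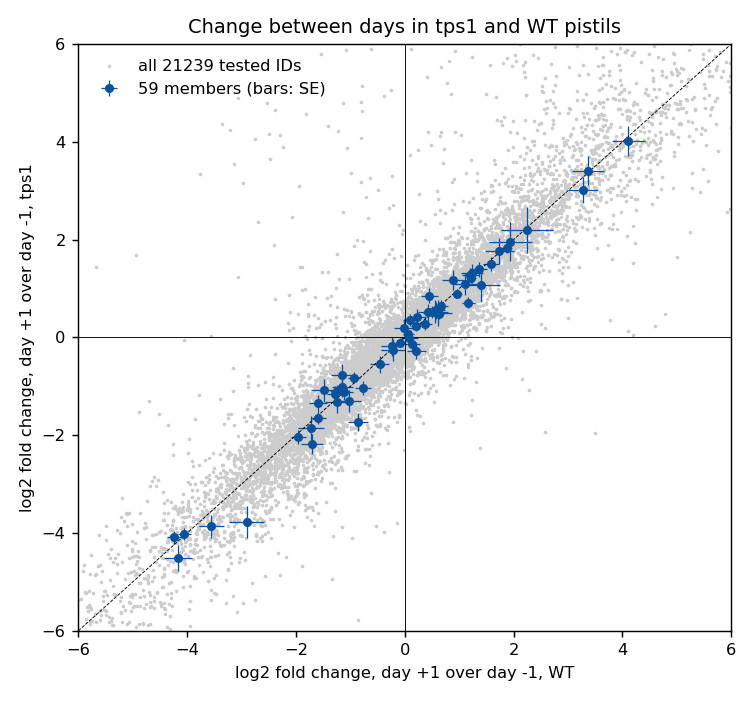
Fitted log2 fold change of day +1 over day -1 in tps1 (vertical axis) against WT (horizontal axis) for the 59 members (blue, bars: SE) and all tested IDs (grey, those beyond 6 on either axis not drawn), with the dashed line marking equal change. The members lie near the dashed line from about 4 on both axes down to -4.52 in tps1 and -4.23 in WT, and 4 of them have opposite signs in the genotypes, all close to 0.

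Among members higher at day +1, the largest changes were those of Peaxi162Scf01333g10015 and Peaxi162Scf00047g01927. Peaxi162Scf01333g10015 had 2502, 2145 and 2630.4 CPM in tps1 and 2915, 2418 and 1841 CPM in WT at day +1, against 128, 240 and 131 CPM in tps1 and 127, 134 and 198 CPM in WT at day -1. The days were far apart in both genotypes, and tps1 day -1 replicate 2 was the highest of the 6 day -1 libraries. The fitted difference was 16.1-fold in tps1 (log2 fold change 4.01 ± 0.303 SE) and 17.2-fold in WT (4.11 ± 0.304 SE). Peaxi162Scf00047g01927, the ID ranked 8 by mean, had 4849, 4172 and 4948 CPM in tps1 and 7369, 4997 and 4134 CPM in WT at day +1, against 382, 681 and 399 CPM in tps1 and 629, 665 and 460 CPM in WT at day -1. WT day +1 replicate 1 stood above the other day +1 libraries, and tps1 day -1 replicate 2 again above the other tps1 libraries of that day. The fitted difference was 10.6-fold in tps1 (3.40 ± 0.296 SE) and 10.3-fold in WT (3.37 ± 0.295 SE).

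Among members lower at day +1, the largest changes were those of Peaxi162Scf00732g00334 and Peaxi162Scf01667g00005. Peaxi162Scf00732g00334 had 94.9, 170.0 and 94.4 CPM in tps1 and 192, 177 and 145 CPM in WT at day +1, against 3186, 3402 and 2509 CPM in tps1 and 2992, 3088 and 4068 CPM in WT at day -1. Its highest and lowest libraries were 43.1-fold apart, the widest range of any member. The fitted log2 fold change was -4.52 ± 0.266 (SE) in tps1, 22.9-fold lower at day +1, and -4.16 ± 0.262 (SE) in WT, 17.9-fold lower.

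Peaxi162Scf01667g00005 had 101, 111 and 112 CPM in tps1 and 107, 114 and 96.0 CPM in WT at day +1, against 1931, 2181 and 2008 CPM in tps1 and 2203, 1735 and 2636 CPM in WT at day -1. The 6 libraries of day +1 were nearly level, and the genotypes overlapped on both days. The fitted log2 fold change was -4.09 ± 0.141 (SE) in tps1, 17.1-fold lower, and -4.23 ± 0.142 (SE) in WT, 18.8-fold lower.

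At the other end, 15 members had a highest library under 2 times their lowest. The smallest day change by the larger of both genotypes was that of Peaxi162Scf00007g01118, with 959, 1009 and 997 CPM in tps1 and 1089.6, 1077 and 952 CPM in WT at day +1, against 943, 1156 and 1039 CPM in tps1 and 1025, 1179 and 1068 CPM in WT at day -1. The genotypes overlapped on each day, and the days overlapped in each genotype. Its fitted log2 fold change was 0.06 ± 0.107 (SE) in tps1 and 0.07 ± 0.107 (SE) in WT, and scaling by total counts turned both below 0, at -0.08 and -0.07. The narrowest range over the 12 libraries, 1.22-fold, was that of Peaxi162Scf01081g00002, an ID named here after its values were seen, at 1596 to 1762 CPM in tps1 and 1567 to 1746 CPM in WT at day +1, and 1465 to 1637 CPM in tps1 and 1447 to 1748 CPM in WT at day -1.

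**Figure D3:**
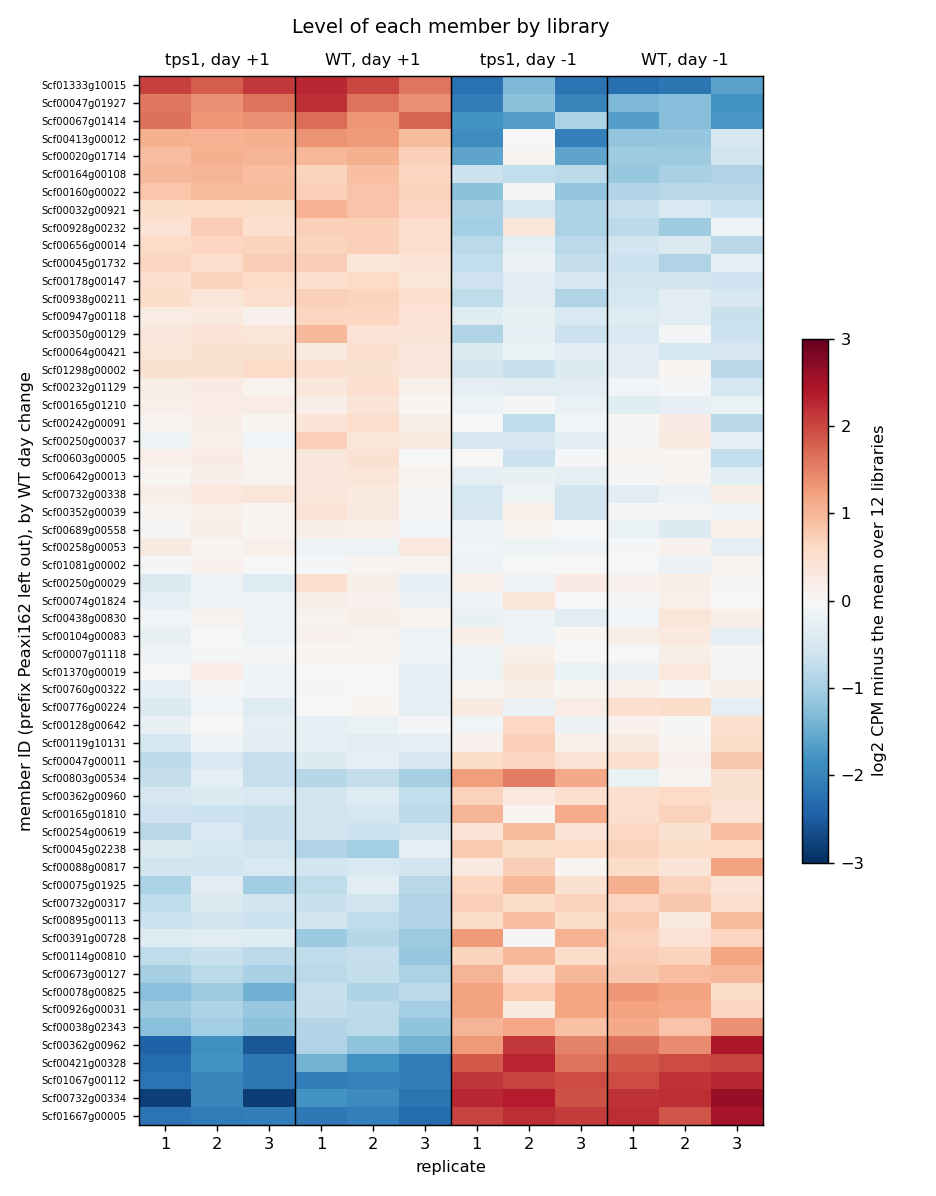
Log2 CPM of each of the 59 members minus its mean over the 12 libraries (colour; red above, blue below), with members as rows ordered by their WT day change and libraries as columns by group. Rows at the top are red in all 6 day +1 libraries, rows at the bottom are red in all 6 day -1 libraries, the middle rows are pale throughout, and in several upper rows tps1 day -1 replicate 2 is paler than the other 2 tps1 replicates of that day.

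Among the most abundant IDs, the second and the fourth lay on the same scaffold, 8 gene numbers apart. Peaxi162Scf00250g00029, the second, had 10006, 12119 and 10376 CPM in tps1 and 18681, 15257 and 11354 CPM in WT at day +1, against 14927, 12496 and 15906 CPM in tps1 and 14688, 15565 and 12846 CPM in WT at day -1. The 4 lowest libraries were the 3 of tps1 at day +1 and WT day +1 replicate 3, and the genotypes overlapped on both days. Its day change had opposite signs, with a log2 fold change of -0.27 ± 0.176 (SE) in tps1 and 0.21 ± 0.176 (SE) in WT. The WT value was 0.0117 without WT day +1 replicate 1, 0.36 without WT day +1 replicate 3, 0.13 without WT day -1 replicate 3 and 0.0715 with total-count scaling. The test of that difference itself, the genotype-by-day term, gave a log2 value of -0.48 ± 0.249 (SE) with an edgeR adjusted p of 0.879.

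Peaxi162Scf00250g00037, the fourth, had 7384, 9175 and 7782 CPM in tps1 and 13595, 10519 and 9951 CPM in WT at day +1. At day -1 it had 5813, 5907 and 6578 CPM in tps1 and 8494, 10048 and 6755 CPM in WT. On each day all 3 tps1 values were below all 3 WT values. The log2 fold change of tps1 over WT was -0.50 ± 0.177 (SE) at day +1, 1.41-fold lower, with a 95% interval of -0.89 to -0.11, and the edgeR adjusted p was 0.432. At day -1 it was -0.49 ± 0.177 (SE) (interval -0.88 to -0.10), where the edgeR adjusted p was 0.518, so neither day passed the test. Without WT day -1 replicate 2 the day -1 value was -0.31.

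The third ID, Peaxi162Scf00165g01210, had 10022, 10468 and 10506 CPM in tps1 and 10220.4, 11865 and 9410.4 CPM in WT at day +1, against 8093, 8682 and 7865 CPM in tps1 and 6959, 7637 and 7835 CPM in WT at day -1. The days did not overlap in either genotype, and at day -1 the tps1 values were all just above the WT values. Its log2 fold change of day +1 over day -1 was 0.48 ± 0.0961 (SE) in tps1 and 0.62 ± 0.0963 (SE) in WT. The log2 fold change of tps1 over WT was -0.03 ± 0.0959 (SE) at day +1 and 0.12 ± 0.0959 (SE) at day -1, and the edgeR adjusted p was 0.997 at day +1 and 0.850 at day -1.

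**Figure D4:**
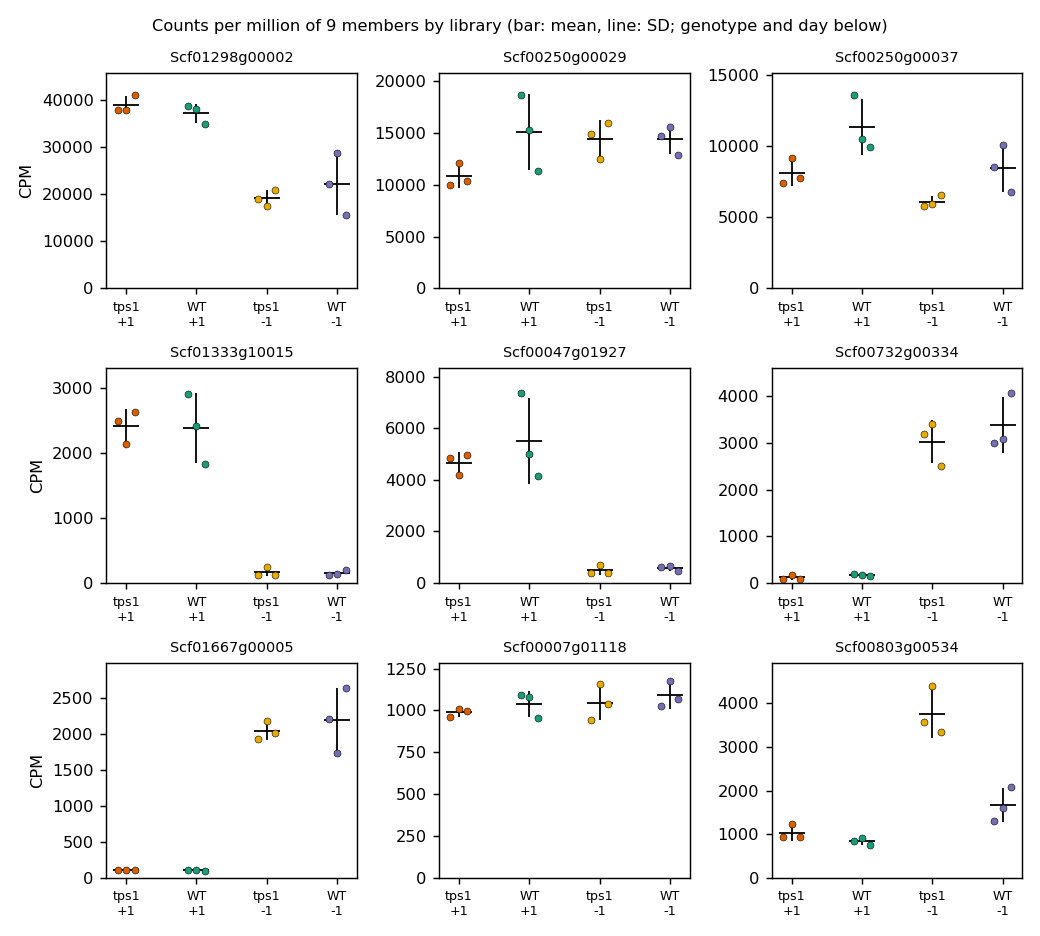
CPM (vertical axes, from 0) of 9 members in each of the 12 libraries by genotype and day, with 3 replicates as points, the mean as a bar and the SD as a vertical line. The top ID lies at 34923 to 41007 CPM at day +1, the Scf00250 pair is lower in tps1 than in WT in the means of day +1, and Scf00803g00534 is highest in the 3 tps1 libraries of day -1.

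The comparison of tps1 with WT asks whether the RNAi plants differ in these transcripts. Of the 59 members, 0 passed the test at day +1 and 1 passed at day -1. Median log2 fold changes of the members were -0.07 at day +1 and -0.05 at day -1, beside 0.01 and -0.02 over all tested IDs. The members' median moved with single libraries. At day +1 it was -0.05 without WT day +1 replicate 1 and -0.10 without tps1 day +1 replicate 2. At day -1 it was -0.0056 without WT day -1 replicate 2 and -0.15 without tps1 day -1 replicate 2, beside -0.0017 and -0.04 over all tested IDs. Median absolute log2 fold changes were 0.13 at day +1 and 0.11 at day -1, and over all tested IDs 0.13 on both days. The members' values ran from -1.11 to 0.66 at day +1 and from -0.49 to 1.16 at day -1, and 19 of 59 members, 32.2%, were above 0 on each day, against 51.2% of all tested IDs at day +1 and 44.7% at day -1.

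At day +1 no member passed the test (edgeR quasi-likelihood, adjusted p under 0.05), where 0.4% of all tested IDs did. The unadjusted p was under 0.05 for 8 members, 13.6%, against 7.8% of all tested IDs. By other tools, DESeq2 called 2 members and 1.49% of all tested IDs, and limma-voom called 0 members and 0.424%. The 3 tps1 values lay all above the 3 WT values for 3 members and all below for 5, which is 5.08% and 8.47% of members, against 10.5% and 8.6% of all tested IDs. The median half-width of the members' 95% intervals was 0.385 on the log2 scale. It was smaller in both wider sets, at 0.373 over all tested IDs and 0.285 for those with a mean of 100 to under 1000 CPM. For 55 of the 59 members, 93.2%, the whole interval lay within a 2-fold change in either direction. The same held for 74.8% of all tested IDs and for 87.9% of those with a mean of 100 to under 1000 CPM. A p above the threshold does not show that the genotypes were equal.

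The smallest p at day +1 among members that were lower in tps1 was that of Peaxi162Scf00362g00962, which had 133, 198 and 119.7 CPM in tps1 and 384, 312 and 266 CPM in WT. The values did not overlap, and all were far below those of day -1. The log2 fold change was -1.11 ± 0.304 (SE), 2.15-fold lower in tps1, with an edgeR adjusted p of 0.245. DESeq2 gave an adjusted p of 0.0153, and the range over all alternatives was 0.0153 to 0.802. At day -1 this ID had 1742, 3084 and 1995 CPM in tps1 and 2235, 1924 and 3814 CPM in WT, which overlapped. The other member that DESeq2 called at day +1 was Peaxi162Scf00947g00118, named here after its values were seen, with 1491, 1563 and 1395 CPM in tps1 and 1988, 2001 and 1713 CPM in WT. Its values did not overlap. The log2 fold change was -0.37 ± 0.118 (SE), with an adjusted p of 0.354 with edgeR and 0.0442 with DESeq2.

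The smallest p at day +1 among members that were higher was that of Peaxi162Scf00391g00728, with 977, 1018 and 998 CPM in tps1 and 587, 704 and 594 CPM in WT. These values did not overlap either. The log2 fold change was 0.66 ± 0.241 (SE), with an edgeR adjusted p of 0.468. It passed at 0.0187 in a fit to the day +1 libraries alone and at 0.0105 without tps1 day -1 replicate 2, where the ID had 1309 CPM against 3098 and 2607 CPM in the other 2 tps1 libraries of that day. Those 3 libraries enter the comparison at day +1 only through the scaling, the filter and the shared estimate of spread. Without both day -1 libraries numbered 2 the edgeR adjusted p at day +1 was 0.0174. At day -1 the log2 fold change of this ID was 0.26 with all libraries (edgeR adjusted p = 0.871). Without tps1 day -1 replicate 2 it was 0.55 (edgeR adjusted p = 0.0335).

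At day -1, 1 member passed the test. The share of all tested IDs that passed was 0.184% in either direction and 0.118% in the higher direction. The unadjusted p was under 0.05 for 5 members, 8.47%, near the 7.71% of all tested IDs. DESeq2 called 3 members and 1.88% of all tested IDs, and limma-voom called 1 member and 0.16%. Peaxi162Scf00803g00534, ranked 15 by mean, had 3573, 4386 and 3335 CPM in tps1 and 1308, 1598 and 2084 CPM in WT. All 3 tps1 values were well above all 3 WT values. It was 2.23-fold higher in tps1 (log2 fold change 1.16 ± 0.183 SE), and the edgeR adjusted p was 0.0463. At day +1 it had 923, 1229.6 and 929 CPM in tps1 and 838, 918 and 754 CPM in WT, all 3 tps1 values again above all 3 WT values, with a log2 fold change of 0.28 ± 0.181 (SE) and an edgeR adjusted p of 0.870.

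The call at day -1 lay close to the threshold. The fold change stayed between 1.00 and 1.35 on the log2 scale in every alternative run. The adjusted p was 3.6e-08 with DESeq2 and 0.0447 with limma-voom, but 0.415 in a fit to the day -1 libraries alone, 0.0629 without both day -1 libraries numbered 2 and 0.0760 with the replicate number as a block. When 1 library was left out in turn, the call held without WT day -1 replicate 3, tps1 day -1 replicate 2 or tps1 day +1 replicate 2, and was lost without each of the other 9, with an adjusted p of up to 0.169.

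Groups did not overlap at day -1 for 3 members that were higher and 2 that were lower in tps1, against 3.47% and 4.2% of all tested IDs. The 2 lower members were the fourth ID, described above, and Peaxi162Scf00438g00830, which also stands just inside the abundance threshold. It had 847, 889.9 and 795 CPM in tps1 and 942, 1273 and 1115 CPM in WT, with a log2 fold change of -0.42 ± 0.126 (SE) and an edgeR adjusted p of 0.398 (0.0376 with DESeq2). The 3 higher members were Peaxi162Scf00803g00534, the third ID and the fifth, Peaxi162Scf00164g00108, which is named here after its values were seen. The fifth ID had 10897, 11209 and 10609.7 CPM in tps1 and 8851, 10409 and 8649 CPM in WT at day +1, against 3575, 3339 and 3226 CPM in tps1 and 2537, 2829.5 and 2977 CPM in WT at day -1. Its tps1 values were above all WT values on both days, but by little, with a log2 fold change of 0.22 ± 0.0977 (SE) at day +1 (edgeR adjusted p = 0.627) and 0.26 ± 0.0977 (SE) at day -1 (edgeR adjusted p = 0.544, and 0.0443 with DESeq2).

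**Figure D5:**
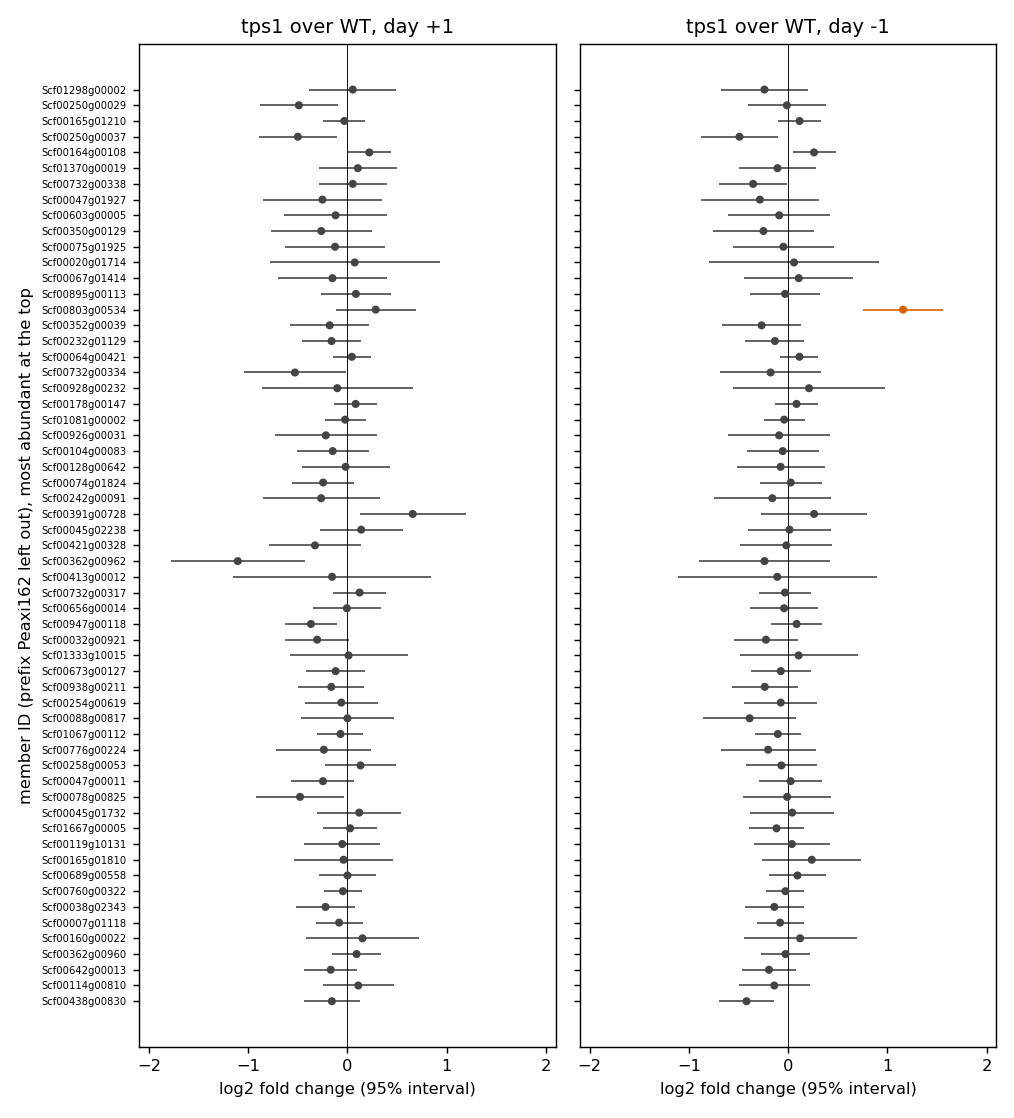
Fitted log2 fold change of tps1 over WT with its 95% interval (horizontal axes) for each of the 59 members, most abundant at the top, at day +1 (left) and day -1 (right), with the member that passed the test in orange. Most intervals include 0 on both days, the lowest estimate is -1.11 at day +1, and the orange member lies at 1.16 at day -1.

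Whether the change between days differed between the genotypes was tested by the genotype-by-day term, the log2 fold change of the days in tps1 minus that in WT. No member passed with edgeR, DESeq2 or limma-voom, where the shares of all tested IDs were 0.00471% with edgeR, 0.433% with DESeq2 and 0.0% with limma-voom. The unadjusted edgeR p was under 0.05 for 2 members, 3.39%, against 6.12% of all tested IDs. The smallest p among members below 0 was that of Peaxi162Scf00803g00534, at -0.87 ± 0.257 (SE) with an unadjusted p of 0.00635 and an edgeR adjusted p of 0.765. It was 3.32-fold lower at day +1 than at day -1 in tps1 and 1.81-fold lower in WT. The smallest p among members above 0 was that of Peaxi162Scf00732g00338, at 0.41 ± 0.217 (SE) with an edgeR adjusted p of 0.889, and 0.24 without WT day -1 replicate 3. It had 3389, 3645 and 3786 CPM in tps1 and 3697, 3612 and 3032 CPM in WT at day +1, against 2022, 2631 and 1965 CPM in tps1 and 2374, 2581 and 3387 CPM in WT at day -1, and the genotypes overlapped on both days. The 95% interval of the term lay within a 2-fold change in either direction for 48 of the 59 members, 81.4%. The same held for 64.7% of all tested IDs and for 81.8% of those with a mean of 100 to under 1000 CPM. The median half-width of this interval was 0.544 for the members, 0.525 over all tested IDs and 0.401 for those with 100 to under 1000 CPM.

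The 59 members lay on 52 scaffolds, and 13 of them shared a scaffold with another member. One scaffold held 3 members and 5 held 2 each. Of the 8 pairs on the same scaffold, 5 had opposite signs of the day change in WT, where 33 of all 59 members were above 0. The opposite pairs on scaffolds 00045, 00047 and 00165 were 506, 1916 and 600 gene numbers apart. The 3 members on scaffold 00732, with gene numbers 4 to 21 apart, went different ways: Peaxi162Scf00732g00338 was higher at day +1, with a log2 fold change of 0.85 in tps1 and 0.45 in WT, while Peaxi162Scf00732g00334 had -4.52 in tps1 and -4.16 in WT. Peaxi162Scf00732g00317, named for its scaffold, had 707 to 887 CPM in tps1 and 642 to 794 CPM in WT at day +1, against 1782 to 1967 CPM in tps1 and 1739 to 2119.5 CPM in WT at day -1, with a log2 fold change of -1.10 in tps1 and -1.25 in WT. On scaffold 00362, Peaxi162Scf00362g00962 had a log2 fold change of -3.77 in tps1 and -2.91 in WT, and Peaxi162Scf00362g00960, 2 gene numbers away and named for its scaffold, had -0.82 in tps1 and -0.94 in WT. Members close together on a scaffold may be similar copies among which reads could be split. The strand setting of the counting is not given in the sources used here. How reads were divided between such neighbours was not tested, so their separate values could be uncertain.

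The median coefficient of variation between replicates was lower at day +1 than at day -1, whereas the SD of the share held by all members, given above, was larger at day +1. In WT at day +1 the membership rule limited the ratio of replicate 3 to replicate 2, but this limit left out no ID at 1000 CPM or more. The median over the members was 5.93% in tps1 and 10.4% in WT at day +1, and 16.7% in tps1 and 17.6% in WT at day -1. For the 1909 tested IDs with a mean of 100 to under 1000 CPM it was 5.23% in tps1 and 7.85% in WT at day +1, and 12.2% in tps1 and 11.8% in WT at day -1. The member with the widest spread in any group was Peaxi162Scf00413g00012, named here after its values were seen. It had 2064, 2052 and 2089.6 CPM in tps1 and 2529, 2402 and 1933 CPM in WT at day +1, against 271, 983 and 241 CPM in tps1 and 436, 446 and 712 CPM in WT at day -1, with tps1 replicate 2 high. Without tps1 day -1 replicate 2 its log2 fold change of tps1 over WT at day -1 was -1.06 (edgeR adjusted p = 0.0452), and with all libraries it was -0.11 (edgeR adjusted p = 0.983).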

How the data were processed

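The authors deposited 1 table of raw counts, whole numbers of reads per gene ID in 12 libraries, and per the submitters' processing notes cutadapt, TopHat2 and HTSeq were used. Versions of these tools, the build and the use of strand: not given in the sources used here. No reference sequence or annotation was used, so gene lists and tissue markers that need gene names were not applied and no sequence is shown. The members and lists were chosen with earlier results of these data known.

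CPM is the count divided by the library's total count. Fold changes came from edgeR 4.0.16 in R 4.3.3: IDs were kept by filterByExpr (minimum count 10, smallest group 3), which left 21239 IDs and all 59 members with 99.95 to 99.97% of counts, TMM gave the scaling factors, and all 12 libraries entered 1 quasi-likelihood fit of group means. Benjamini-Hochberg adjustment ran over all tested IDs within each contrast, with a threshold of 0.05. The standard error is the log2 fold change divided by the square root of the F statistic, an approximation, and the 95% intervals use the model's degrees of freedom. Total counts of 19576755 to 30357964 per library give small counting errors, and intervals on shares cover counting error only. Replicates were checked for duplicates by a chi-square test of their counts, whose statistic was 7.78 to 110 times its degrees of freedom, and none was found. The pipeline was tested on simulated data.

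Named IDs were the 4 most abundant members, those with the smallest p in each genotype contrast and in the genotype-by-day term (up to 2 per direction among those that passed, otherwise 1 per direction), the 2 largest day rises and falls, the smallest day change, and the IDs nearest the abundance threshold. Any other ID is said to have been named after its values were seen or for its scaffold. Alternatives were RLE and total-count scaling, TMM without the members, 2 other filters, DESeq2 1.42.0, limma 3.58.1 (voom), a replicate block, fits to only the groups compared, leaving out each library in turn or both day -1 libraries numbered 2, other abundance thresholds and other denominators of the share. The denominator without the 560 co-varying IDs, and leaving out single libraries for the difference in share between genotypes, were chosen after seeing the data.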

Additional observations from a re-analysis of the deposited data

How the results depend on the processing

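The number of members called for the genotype-by-day term was 0 in every alternative run. For tps1 over WT at day +1 the count of 0 became 2 with DESeq2, 1 with only the groups compared and 1 without both day -1 libraries numbered 2, and was 0 to 1 when single libraries were left out (1 without tps1 day -1 replicate 2). The share of all tested IDs called at day +1 was 0.4% in the main fit, 1.49% with DESeq2 and 0.979% with only the groups compared. It was 0.794% without both libraries numbered 2 and 0.59% without tps1 day -1 replicate 2. For day -1 the count of 1 became 3 with DESeq2, 0 with only the groups compared and 2 without both libraries numbered 2, and was 0 to 3 with single libraries left out (3 without tps1 day -1 replicate 2). The 2 called without both libraries numbered 2 did not include Peaxi162Scf00803g00534. They were Peaxi162Scf00413g00012 (log2 fold change -1.15, edgeR adjusted p = 0.0431) and Peaxi162Scf00165g01810 (0.61, edgeR adjusted p = 0.0317), the latter named here after its values were seen. The share of all tested IDs called at day -1 moved as well, from 0.184% in the main fit to 1.88% with DESeq2. It was 0.0201% with only the groups compared, 1.71% without both libraries numbered 2 and 1.14% without tps1 day -1 replicate 2. With the replicate number as a block the day -1 count was 0, and the called member, Peaxi162Scf00803g00534, had an edgeR adjusted p of 0.0760. Deviations of same-numbered libraries from their group means correlated at -0.12, 0.36 and -0.11 between the genotypes at day +1, at 0.12, -0.18 and -0.37 at day -1, and at -0.578 to 0.124 across days. Of these 18 pairs 3 were over 0.1, and in no 2 groups were all 3 pairs, so the numbers were not taken to pair the libraries. Over all IDs the block left 52 calls in place of 85 at day +1 and 23 in place of 39 at day -1. The share of counts moved with the abundance threshold, to 24.5% in tps1 and 25.6% in WT at day +1 and 22.1% in tps1 and 22.7% in WT at day -1 for a mean of at least 500 CPM. For at least 2000 CPM it was 10.6% in tps1 and 11.2% in WT at day +1 and 6.63% in tps1 and 7.14% in WT at day -1. It was 16.8% in tps1 at day +1 without the co-varying IDs in the total. With single libraries left out it was 15.53 to 15.97% in tps1 and 15.9 to 17.4% in WT at day +1, and 13.4 to 13.7% in tps1 and 13.6 to 14.4% in WT at day -1. Some log2 values near 0 changed sign. That of Peaxi162Scf01298g00002 for tps1 over WT at day -1 was 0.10 without both libraries numbered 2 and -0.443 to 0.0379 with single libraries left out. That of Peaxi162Scf00250g00029 at day -1 was 0.0016 with RLE scaling and with DESeq2, 0.0075 with total-count scaling, 0.0179 with TMM without the members, 0.0154 with only the groups compared, 0.18 without both libraries numbered 2, and -0.0935 to 0.0880 with single libraries left out. That of Peaxi162Scf00165g01210 at day +1 was -0.0828 to 0.0298 with single libraries left out. The day change of Peaxi162Scf00007g01118 was -0.0822 in tps1 and -0.0689 in WT with total-count scaling, and -0.0152 to 0.131 in tps1 with single libraries left out. The causes were not tested.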
